A study of Mus musculus with 16 samples.

Results

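All 16 of the 16 arrays of the study entered the comparison described here, which asks whether the difference between 2 macrophage populations depends on the tissue they came from. Macrophages were sorted by flow cytometry from mouse pancreas tumor or from normal pancreas as YFP+ or YFP- cells, which gave 5 YFP+ and 5 YFP- arrays from tumor and 3 of each from normal pancreas. By their labels the mice were females on a C57/B6 background, aged 8 to 10 weeks, and their genotype was not provided. The design names wild-type, KPC and FLT3-CRE/LSL-YFP mice, but the protocol has tumors implanted, so the tumor model behind each array is unclear. Each array carries a number in its title that one YFP+ and one YFP- array share, and no label says that it stands for a mouse, so the p-values measure the spread between these arrays, which may be partly technical.

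Flt3 is a receptor tyrosine kinase of early blood progenitors and of dendritic cell precursors. In a reporter mouse whose Cre recombinase is driven by Flt3, cells that once expressed it, and their descendants, keep the YFP mark, whereas macrophages seeded from yolk sac progenitors mostly lack it. A pancreas macrophage that is YFP+ is therefore taken to descend from definitive hematopoiesis, and YFP- cells can hold embryonically derived macrophages and any cell in which Cre was not active. KPC mice are a genetic model of pancreatic ductal adenocarcinoma, and such tumors are rich in fibroblasts, matrix and myeloid cells.

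For each gene the tumor response, that is the mean log2 signal in tumor minus that in normal pancreas, was taken in YFP+ and in YFP- cells. The response of YFP+ cells minus that of YFP- cells is the interaction, and it equals the YFP difference in tumor minus the YFP difference in normal pancreas. A negative interaction thus means that the level in tumor, relative to normal pancreas, was higher in YFP- than in YFP+ cells. Signals are log2 values relative to the 75th percentile of the array, so that 0 stands for that percentile. A probe that the scanner software did not mark as well above background has no measured level, and a fold against a group made only of such probes is given as at least a value.

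Probes for immunoglobulin variable segments carried the highest interaction, and 4 probes are shown because results below turn on them. Immunoglobulin genes are rearranged and transcribed by B and plasma cells, and the variable segments hold a conserved Tyr-Tyr-Cys stretch near their end. The letters TATTACTG can encode its Tyr-Tyr and the start of the Cys codon. Capitals mark these letters where a probe holds them. The first and last belong to gene models in the kappa light chain locus (mm9, chr6:70306191-70306250 and chr6:68812259-68812318), the second to one in the heavy chain locus (mm9, chr12:117003629-117003688). The third has neither a gene name nor a position in the files.

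ENSMUST00000103390: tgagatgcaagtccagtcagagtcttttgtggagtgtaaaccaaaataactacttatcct
ENSMUST00000103542: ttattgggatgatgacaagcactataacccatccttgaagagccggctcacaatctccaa
A_55_P2059775: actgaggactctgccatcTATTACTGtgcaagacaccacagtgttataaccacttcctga
ENSMUST00000103336: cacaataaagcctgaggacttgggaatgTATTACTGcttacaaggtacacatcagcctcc

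The stretch TATTACTG, searched on both strands, occurred in 33 of 212 probes within the kappa and heavy chain loci (15.6%) and in 145 of 39429 probes of the array (0.368%).

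Of 24173 genes tested, 25 differed in their tumor response between the populations (limma with Benjamini-Hochberg adjustment, adjusted p under 0.05), which is 0.103% of them. The interaction was negative for 16 (0.0662%) and positive for 9 (0.0372%). At an unadjusted p under 0.05 there were 774 negative and 668 positive genes, and the median over all genes was 0.05, against a median standard error of 0.44. With the slide as a block, 7 negative and 1 positive interactions passed, and after a normexp background correction 10 and 16 did. The YFP difference itself was called for 184 higher (0.761%) and 395 lower (1.63%) genes in tumor, and for 2 higher (0.00827%) and 3 lower (0.0124%) in normal pancreas. Each tumor response alone reached many more genes. In YFP+ cells 1395 genes rose (5.77%) and 1580 fell (6.54%), with a median response of -0.07 over all genes, and in YFP- cells 1847 rose (7.64%) and 2053 fell (8.49%), with a median of -0.19. The normexp correction moved the latter median to 0.03, and 1800 genes then rose and 1292 fell in YFP- cells.

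Among the genes called in both responses, 1040 were higher in tumor in both, 1008 were lower in both and 4 went opposite ways. The 2048 genes of like direction are 68.8% of the calls in YFP+ and 52.5% of the calls in YFP- cells. Calls in one population alone, 923 in YFP+ and 1848 in YFP-, do not by themselves show a difference between the populations, for which the interaction is the test. In simulated data of the same size, 94 of 100 genes with a true interaction of 4 on the log2 scale were called, and 43 of 100 with one of 2. The simulated noise was independent between arrays, with no slide effect and no background floor. The real arrays may therefore recover fewer such genes.

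**Figure D1:**
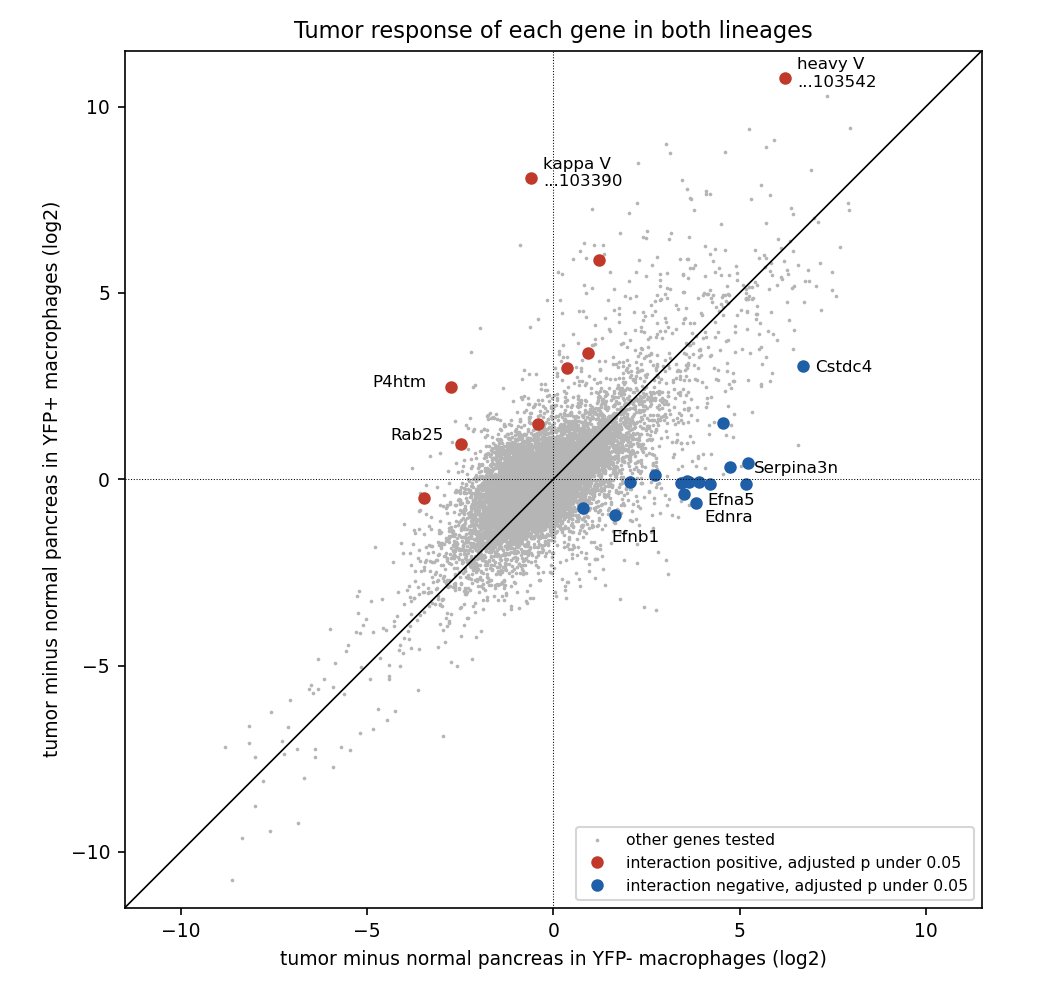
Tumor response of each gene (log2, tumor minus normal pancreas) in YFP- cells on the x axis and in YFP+ cells on the y axis, with the genes called in the interaction in color and some of them named. Most genes lie along the diagonal of equal responses. The called genes with a negative interaction lie to the right of it, Serpina3n at 5.16 in YFP- and -0.11 in YFP+ cells, and ENSMUST00000103390 lies farthest above it.

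The genes raised by the tumor in YFP- cells but not called in YFP+ cells form the largest group. Of the 16 genes with a negative interaction, 13 were higher in tumor in YFP- cells and not called in YFP+ cells, among them Cfi, Ednra, Efna5, Efnb1, Gcnt3, Kif26b, Phldb2, Prrx2, Rbp4, Serpina3n and Thbs2. These encode proteins of different kinds, such as signaling molecules, a transcription factor, secreted proteins and a protein of the matrix. In 9 of the 16 the signal was well above background on tumor YFP- arrays alone, so that the size of the fitted interaction depends on where the array's floor lies. These 9 passed the probe filter through that group alone, and their signals in the other groups are not measured levels. Their p-values therefore rest partly on signal below background.

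Ednra, the endothelin A receptor of smooth muscle and mesenchymal cells (mm9, chr8:80186985-80187044), lay at -2.75, -3.85, -2.66, -2.93 and -2.64 on the 5 tumor YFP- arrays. On none of the other 11 arrays was it well above background. It was at least 3.07-fold higher in tumor than in normal pancreas in YFP- cells, and at least 3.75-fold higher in YFP- than in YFP+ cells of the tumor. Its fitted interaction was -4.49 ± 0.47 (SE, limma, adjusted p = 0.000845), and the tumor response of YFP- cells was 3.84 (adjusted p = 2.87e-06).

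Thbs2, which encodes the matricellular protein thrombospondin 2 (mm9, chr17:14805730-14805789), was detected on the same 5 arrays alone. Its signal there was -2.34, -2.65, -2.36, -3.15 and -3.54, a level at least 3.42-fold above normal YFP- cells and at least 4.19-fold above tumor YFP+ cells. The interaction of -3.90 ± 0.40 (limma, adjusted p = 0.000749) did not lose its call in any of the 34 other settings and subsets of arrays, and neither did that of Ednra. In the setting that gave the least, the size was 1.57 for Thbs2 and 2.07 for Ednra on the log2 scale.

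Efna5 encodes ephrin A5, a membrane-anchored ligand of Eph receptors that guides cell contacts (mm9, chr17:62954177-62954236). It was at -3.08, -2.14, -2.20, -2.48 and -2.98 in tumor YFP- cells and below background everywhere else. Here the fitted interaction of -3.99 ± 0.31 had the smallest adjusted p of all genes (limma, 7.72e-05), with a level at least 4.01-fold higher in tumor than in normal YFP- cells. Prrx2, a homeobox gene of mesenchyme (mm9, chr2:30736678-30736737), ran from -3.46 to -2.24 on the tumor YFP- arrays, at least 3.55-fold above normal YFP- cells (interaction -3.72 ± 0.32, limma, adjusted p = 0.000154). Kif26b, a kinesin family gene active in cell adhesion and polarity (mm9, chr1:180862723-180862782), ran there from -3.86 to -2.06, at least 3.10-fold above normal YFP- cells (interaction -3.65 ± 0.42, adjusted p = 0.00171).

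Serpina3n, a secreted inhibitor of serine proteases (mm9, chr12:105651918-105651977), had the most negative interaction among the called genes, at -5.28 ± 0.59 (limma, adjusted p = 0.00156), a size that depends on the floor (-3.26 with dim groups set at it). It lay at -0.73, -3.10, -1.58, -0.85 and -1.17 on tumor YFP- arrays, and the other 11 arrays, between -7.21 and -6.03, were not well above background. The level was at least 8.55-fold higher in tumor than in normal YFP- cells and at least 10.5-fold higher than in tumor YFP+ cells. Efna5, Prrx2, Kif26b and Serpina3n each lost their call in 1 of the 34 other settings, the normexp background correction, where the adjusted p was 0.0665, 0.0770, 0.248 and 0.0567.

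Cfi, the complement factor I gene, was at -4.09, -3.11, -1.17, -2.02 and -2.91 on the tumor YFP- arrays and on no other array above background. It was at least 3.79-fold above normal YFP- cells (interaction -4.35 ± 0.64, limma, adjusted p = 0.0191). Rbp4, which encodes the retinol carrier of plasma, was at -2.33 to -0.78 on tumor YFP- arrays, at least 7.70-fold above normal YFP- cells. It was also above background on 1 tumor YFP+ array, at -4.10, and its interaction of -4.79 ± 0.84 had an adjusted p of 0.0490. Gcnt3, an enzyme gene of mucin-type glycan branching, was detected on 4 of 5 tumor YFP- arrays, at least 2.23-fold above normal YFP- cells (-3.53 ± 0.59, adjusted p = 0.0357).

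The calls of Cfi and Phldb2 were lost when any of the arrays normal YFP+ 23912, 23916 or 23917 or normal YFP- 23916 was left out. Those of Rbp4 and Gcnt3 were lost in 14 and 12 of the 16 such fits. Ednra, Thbs2, Efna5, Prrx2, Kif26b, Serpina3n and ENSMUST00000103390 kept theirs in all 16. All of these but ENSMUST00000103390 were above background on tumor YFP- arrays alone. ENSMUST00000103390 was above background on no tumor YFP- or normal YFP+ array. Leaving out 1 array is thus a weak check of these calls, since their signal below background varied little.

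**Figure D2:**
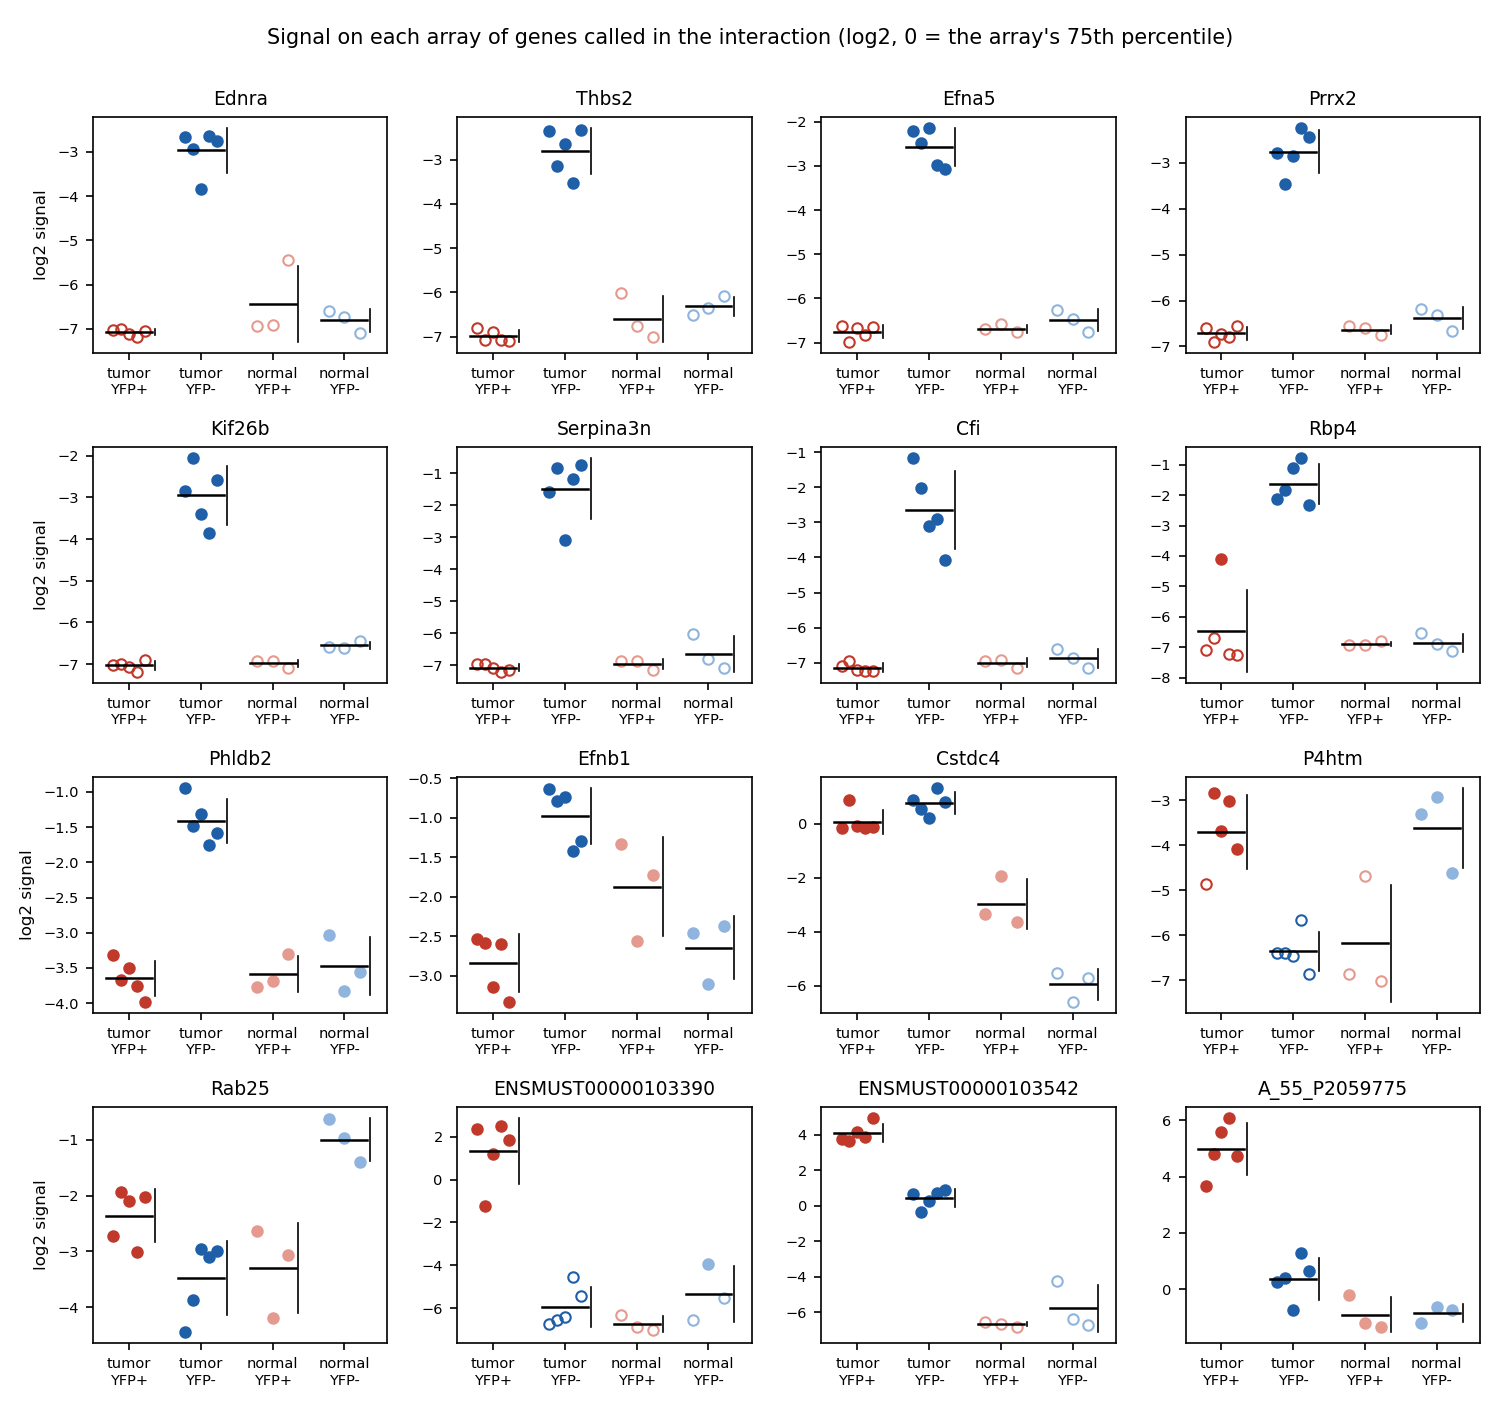
Log2 signal of 16 called genes on every array, by group, with filled points for probes well above background, open points for probes that were not, a bar at the group mean and a vertical line for the SD. Ednra, Thbs2, Efna5, Prrx2, Kif26b and Serpina3n have filled points in tumor YFP- cells alone, whereas Phldb2 and Efnb1 are measured on all 16 arrays.

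A smaller set of genes was measured in every group, so that their interaction has a size. Phldb2, which encodes a cortical protein that anchors microtubules at cell adhesions (mm9, chr16:45746393-45746452), was at -1.59, -1.31, -0.94, -1.48 and -1.75 in tumor YFP- cells. It was at -3.98, -3.32, -3.51, -3.76 and -3.67 in tumor YFP+ cells, at -3.68, -3.78 and -3.30 in normal YFP+ cells and at -3.83, -3.56 and -3.03 in normal YFP- cells. Tumor YFP- cells stood above the other groups, which overlapped one another, and the response of YFP- cells exceeded that of YFP+ cells 4.35-fold (interaction -2.12 ± 0.33, limma, adjusted p = 0.0218).

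Efnb1, the ephrin B1 gene, another Eph receptor ligand (mm9, chrX:96343505-96343564), went in different directions. In YFP- cells it rose, from -3.10, -2.36 and -2.46 in normal pancreas to -1.29, -0.74, -0.64, -0.79 and -1.42 in tumor (response 1.66, limma, adjusted p = 0.00170). In YFP+ cells it was at -2.55, -1.34 and -1.72 in normal pancreas and at -3.33, -2.53, -3.14, -2.59 and -2.59 in tumor, a response of -0.97 that did not pass (adjusted p = 0.0511). The interaction of -2.63 ± 0.43 (adjusted p = 0.0325) amounts to 6.18-fold. Its call was lost in 9 of the 16 fits that left out 1 array.

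The gene model AK035396 had an interaction of -1.57 ± 0.25 (limma, adjusted p = 0.0317) and is the single negative call whose responses passed in opposite directions.

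Cstdc4, a member of the stefin family of cysteine protease inhibitors (mm9, chr16:36188043-36188102), rose in both populations, and more in YFP- cells. It reached -0.14, -0.16, -0.09, -0.17 and 0.88 in tumor YFP+ cells and 0.81, 0.22, 0.88, 0.56 and 1.32 in tumor YFP- cells, which overlap. In normal pancreas the YFP+ arrays were at -1.93, -3.34 and -3.64, and no YFP- array was well above background. The response was thus 3.04 on the log2 scale in YFP+ cells and at least 40.5-fold in YFP- cells, and the interaction was -3.66 ± 0.56 (limma, adjusted p = 0.0218). The difference between the responses thus came with a difference between the normal populations (YFP difference in normal pancreas 2.97, adjusted p = 0.0399). Gm9733 showed the same form, with normal YFP+ arrays between -3.67 and -3.23, normal YFP- arrays all below background and tumor arrays of both populations between -2.59 and -1.20 (interaction -3.05 ± 0.47, adjusted p = 0.0218).

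The mean levels of fibroblast and epithelial markers were highest in tumor YFP- cells, but fibroblast markers overlapped between tumor and normal YFP- arrays. The mean signal of 29 fibroblast and stellate cell markers lay between -0.82 and -0.21 on tumor YFP- arrays, between -2.95 and -2.33 on tumor YFP+ arrays, between -2.66 and -2.03 on normal YFP+ arrays and between -1.72 and -0.48 on normal YFP- arrays. The mean of 30 ductal and tumor epithelial markers was between -0.67 and -0.27 on tumor YFP- arrays and between -2.44 and -1.64 on all others but the normal YFP- arrays, which lay between -1.92 and -1.82. Their part in the interactions of the genes above was not tested. In bulk samples, fewer cells of a type and less RNA per cell cannot be told apart.

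The defining genes of the sorted cells did not differ in their responses past the threshold. Csf1r, the receptor that macrophages depend on, was between 4.93 and 6.56 on all 16 arrays (interaction 0.38, limma, adjusted p = 0.925). Adgre1, which encodes F4/80, had an interaction of 0.08 (adjusted p = 0.982), and Flt3 itself 0.20 (adjusted p = 0.977). The 28 macrophage identity genes had a median interaction of -0.02, 0 of them called. These values turned sign between slides 2 and 3, which held 1 array of each group. They were 1.26 and -0.88 for Csf1r, 0.96 and -1.24 for Adgre1, -2.06 and 2.69 for Flt3 and 0.48 and -0.97 for the median of the identity genes. The mean level of the identity genes was 3.51 on the normal YFP- array numbered 23912 and 4.23 to 4.27 on the other 2 arrays of its group. The lowest level was 3.76 among normal YFP+, 3.83 among tumor YFP+ and 3.85 among tumor YFP- arrays. The array numbered 23912 was thus the lowest, and calls made without it are described at the end.

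The positive interactions fell into genes raised by the tumor in YFP+ cells and genes lowered by it in YFP- cells. ENSMUST00000103390, the kappa chain model whose probe is printed above, was at 1.84, 2.37, 1.21, 2.51 and -1.25 on tumor YFP+ arrays. It was not well above background on any tumor YFP- or normal YFP+ array and on 1 of 3 normal YFP- arrays reached -3.96. The level was at least 65.9-fold higher in tumor than in normal YFP+ cells and at least 55.4-fold higher than in tumor YFP- cells (interaction 8.68 ± 1.12, limma, adjusted p = 0.00580).

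ENSMUST00000103542, the heavy chain model, rose in both populations. Tumor YFP+ arrays were at 4.93, 3.77, 4.14, 3.89 and 3.66 and tumor YFP- arrays at 0.91, 0.25, 0.66, -0.36 and 0.71, while none of the normal arrays was well above background. The tumor level was at least 440-fold higher in YFP+ and at least 31.7-fold higher in YFP- cells (interaction 4.54 ± 0.67, limma, adjusted p = 0.0191). The call was lost when any of the 3 normal YFP+ arrays was left out.

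The unnamed probe A_55_P2059775, whose letters include the stretch TATTACTG, was at 4.73, 3.68, 5.59, 6.08 and 4.80 on tumor YFP+ arrays. It was between -0.75 and 1.28 on tumor YFP- arrays and between -1.33 and -0.20 on all 6 normal arrays, so that tumor YFP+ arrays stood alone (interaction 4.66 ± 0.71, limma, adjusted p = 0.0218). Its call was lost without normal YFP+ 23912 or 23917 or normal YFP- 23916. The other unnamed probe A_55_P2123711 (2.63 ± 0.45, adjusted p = 0.0424), ENSMUST00000026133 (1.91 ± 0.33, adjusted p = 0.0437) and Gm36913 (adjusted p = 0.0347) had smaller positive interactions. Gm36913 was not well above background on any normal YFP+ array, so that its fitted value of 2.46 depends on the floor. With the dim group set at the floor the interaction was 0.14, and with normexp it was 0.37 (limma, adjusted p = 0.963). Each of these lost its call in 10 or more of the 16 fits without 1 array.

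The 212 probes in the kappa and heavy chain loci, a group chosen after the values were seen, are described together with the called models. Their median interaction was 1.36, against 0.05 for all genes, with 163 positive and 49 negative values from -2.67 to 8.68. At an unadjusted p under 0.05, 57 were positive (2.76% of all genes were) and 0 negative (3.2% of all genes were). The positive interactions that passed the adjusted threshold were 2 (0.0372% of all genes did). The tumor response had a median of 4.85 in YFP+ and 3.03 in YFP- cells, with 158 and 105 probes higher in tumor, beside 5.77% and 7.64% of all genes. The mean level of the probes was between 2.08 and 3.09 on tumor YFP+ arrays, between -0.68 and 0.66 on tumor YFP- arrays, between -2.65 and -0.38 on normal YFP+ and between -3.91 and -1.72 on normal YFP- arrays. Variable segments are near copies of each other, so that probes can share signal and do not count as independent.

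Values are given by chain, with no test between the chains. The 90 kappa probes had a median interaction of 2.25, with 81 positive, and 73 of them were higher in tumor in YFP+ against 37 in YFP- cells. The 122 heavy chain probes had a median of 0.68, with 82 positive, and 85 and 68 were higher in tumor. Over all genes 5.77% rose in YFP+ and 7.64% in YFP- cells. ENSMUST00000103336, the kappa model with the stretch TATTACTG, had an interaction of 6.73 that did not pass (limma, adjusted p = 0.421). Within the slides that held all 4 groups, with 1 array a group, the median over the 212 probes was 1.09 on slide 2 and 3.15 on slide 3.

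**Figure D3:**
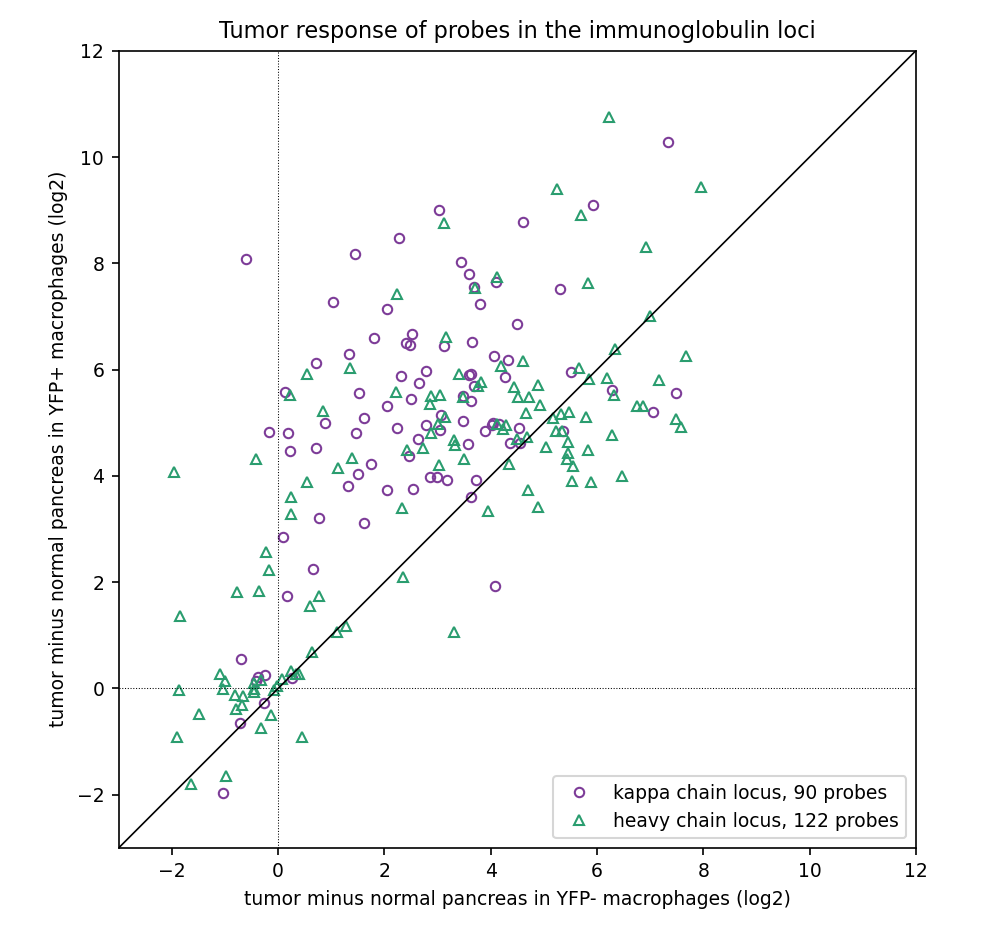
Tumor response (log2) of the 90 kappa and 122 heavy chain probes in YFP- cells on the x axis and in YFP+ cells on the y axis, 1 point a probe, with the diagonal of equal responses. Most kappa probes lie above the diagonal, 81 of 90, and heavy chain probes are spread closer to it, 82 of 122 above.

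Plasma cell genes other than immunoglobulins gave large positive values of which none passed. Tnfrsf17, which encodes the survival receptor BCMA, had an adjusted p of 0.0551 (limma, interaction 4.09 ± 0.73), the smallest among genes not called and shared with Klf5 (-2.11), a transcription factor gene. It was at -1.74, -1.37, -1.29, -1.47 and -0.52 on tumor YFP+ arrays and between -5.32 and -3.37 on tumor YFP- arrays. Normal YFP- arrays were at -1.55, 0.25 and 0.47, so that the tumor response of YFP- cells was negative (-3.79) and that of YFP+ cells was 0.30.

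Mzb1, an endoplasmic reticulum protein gene of antibody-secreting cells, rose in both populations, by 4.59 in YFP+ and 1.75 in YFP- cells (interaction 2.83 ± 0.66, limma, adjusted p = 0.186). Derl3, of the pathway that clears misfolded proteins from the endoplasmic reticulum, rose by 2.67 in YFP+ cells and had a response of 0.24 in YFP- cells (interaction 2.42 ± 0.49, adjusted p = 0.110). Bhlha15, which encodes the transcription factor MIST1 of secretory cells and is counted here among the acinar markers, had 5.64 ± 1.25 (adjusted p = 0.152). It was well above background on only 1 of 5 tumor YFP- and 1 of 3 normal YFP+ arrays. The size of its interaction thus rests partly on signal below background. Of the 17 plasma cell markers 0 passed, and the median was 0.55. At an unadjusted p under 0.05, 5 had a positive and 1 a negative interaction, beside 2.76% and 3.2% of all genes. Their mean level in tumor was 1.62 to 2.22 for YFP+ and 0.50 to 1.01 for YFP- arrays, and in normal pancreas 0.45 to 0.70 and 0.00 to 0.42, and its part in the immunoglobulin values was not tested.

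Of the 26 B cell markers 0 passed, and their median interaction was 0.60, with 4 positive values at an unadjusted p under 0.05 (2.76% of all genes were). The B cell median turned to -0.081 within slide 2. The mean level of these markers in tumor was -0.90 to -0.13 for YFP+ and -1.62 to -0.80 for YFP- arrays, and in normal pancreas -1.70 to -1.10 and -2.05 to -0.97, so that the tumor groups overlapped.

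P4htm, a transmembrane prolyl hydroxylase gene of the endoplasmic reticulum (mm9, chr9:108481327-108481386), responded in opposite directions. It was above background on 4 of 5 tumor YFP+ arrays, at -4.09, -3.69, -3.02 and -2.84, and on all 3 normal YFP- arrays, at -2.93, -4.62 and -3.30, and on none of the other groups. It was at least 2.01-fold higher in tumor in YFP+ and at least 1.79-fold lower in tumor in YFP- cells (interaction 5.22 ± 0.81, limma, adjusted p = 0.0218). After the normexp background correction the size fell to 1.14 with an adjusted p of 0.693, and the call was also lost without normal YFP+ 23916, normal YFP+ 23917 or normal YFP- 23917.

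Rab25, a small GTPase gene of epithelial membrane recycling, fell in YFP- cells. It went from -0.96, -1.41 and -0.64 on normal YFP- arrays to between -4.44 and -2.95 in tumor (response -2.47, limma, adjusted p = 0.000888), whereas in YFP+ cells it was at -4.19, -2.63 and -3.07 in normal pancreas and at most at -1.94 in tumor, which overlap. The interaction was 3.40 ± 0.58 (adjusted p = 0.0424), and 13 of the 16 fits without 1 array lost it. Normal YFP- arrays also carried the highest mean level of acinar markers, between 3.15 and 4.46 against 2.40 to 2.96 on normal YFP+ arrays, and their part in the values of Rab25 and P4htm was not tested.

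Across 36 gene lists with 985 members on the array, the most negative median interactions belonged to matrix and mesenchymal genes and to granulocyte and mast cell markers. The 39 collagens and structural matrix genes had a median of -1.61, 18 negative and 0 positive values at an unadjusted p under 0.05 (3.2% of all genes were negative), and 1 call, Thbs2. In YFP- cells 10 of them rose and 1 fell in tumor (median response 0.74), and in YFP+ cells 3 rose and 3 fell (median -0.49). Over all genes 7.64% rose and 8.49% fell in YFP- cells, and 5.77% rose and 6.54% fell in YFP+ cells. At an unadjusted p under 0.05, 2.76% of all genes were positive and 3.2% negative. These shares stand beside the counts of every list. Fn1, the fibronectin gene, rose in YFP- cells by 1.29 and was at -0.07 in YFP+ cells (interaction -1.36 ± 0.35, limma, adjusted p = 0.273). Fbln2, which encodes fibulin 2, rose by 1.96 in YFP- cells against -0.23 in YFP+ cells (-2.20 ± 0.53, adjusted p = 0.214). The collagen chain gene Col1a1 rose by 2.32 in YFP- cells against 0.18 (-2.14 ± 0.76, adjusted p = 0.612).

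Dcn, the proteoglycan decorin, showed another order of values, and its interaction did not pass the threshold. It fell in YFP+ cells, by 3.18 on the log2 scale, from 0.17, 2.76 and 1.81 to between -3.01 and -0.44, while normal YFP- arrays at 1.17, 3.87 and 4.62 overlapped the tumor YFP- arrays at 2.42 to 4.39 (interaction -3.51 ± 1.09, limma, adjusted p = 0.486). The interaction of Dcn was -0.0070 within slide 2 and -8.04 within slide 3. Within slide 2 the median of the collagen and matrix list was 0.40, opposite in sign to the pooled value. The 36 matrix remodelling genes had a median of -0.35 (0.39 within slide 2), with 9 negative and 1 positive at an unadjusted p under 0.05. Adamts2, a procollagen protease gene, fell in YFP+ cells by 1.60 and had a response of 0.42 in YFP- cells (-2.02 ± 0.38, adjusted p = 0.0711). Among 31 growth factors and Wnt modulators (median -0.12, 6 negative and 0 positive at an unadjusted p under 0.05, 0 calls), Ccn2, a matricellular target gene of TGF-beta, rose in YFP- cells by 1.63 against 0.30 in YFP+ cells (-1.33 ± 0.27, adjusted p = 0.110). Dkk3, of the Dickkopf family, rose by 4.55 in YFP- cells against 0.15 (-4.40 ± 1.04, adjusted p = 0.203), a size that depends on the floor.

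The 29 fibroblast and stellate cell markers had a median interaction of -0.87 (-0.042 within slide 2) with 9 negative and 0 positive at an unadjusted p under 0.05 and 0 calls. In YFP- cells 6 rose in tumor, and in YFP+ cells 1 rose and 2 fell, where 7.64% of all genes rose in YFP- cells and 5.77% rose and 6.54% fell in YFP+ cells. Mgp, the matrix Gla protein gene, rose by 2.43 in YFP- cells and had a response of -0.47 in YFP+ cells (interaction -2.91 ± 0.77, limma, adjusted p = 0.296). Among the 30 ductal and tumor epithelial markers the median was -0.73, 10 were negative at an unadjusted p under 0.05, and 1 passed the adjusted threshold. Krt18, a simple epithelial keratin gene, rose by 2.25 in YFP- cells against 0.72 in YFP+ cells (-1.53 ± 0.36, adjusted p = 0.193), and Krt19, the keratin of ducts, rose in both, by 4.83 and 2.65 (-2.18 ± 0.68, adjusted p = 0.484).

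The 26 mast cell, basophil and eosinophil markers had a median of -1.46, with 7 negative values at an unadjusted p under 0.05 and 0 calls. In tumor 13 rose in YFP- and 4 in YFP+ cells, beside 7.64% and 5.77% of all genes. Fcer1a, which encodes the IgE-binding chain of a mast cell and basophil receptor, was at 0.85, -1.78, 2.07, -1.87 and -0.20 on tumor YFP- arrays, was above background on 1 tumor YFP+ array (-3.13) and on no normal array (interaction -5.65 ± 1.32, limma, adjusted p = 0.193). The 28 neutrophil markers had a median of -0.96 (-0.063 within slide 3), with 5 negative values at an unadjusted p under 0.05. They rose often in both populations, 11 in YFP+ and 13 in YFP- cells, beside 5.77% and 7.64% of all genes. Ltf, the lactoferrin gene, rose by 2.39 in YFP- cells and had a response of 0.86 in YFP+ cells (-1.53 ± 0.45, adjusted p = 0.415). Retnlg, a resistin-like neutrophil gene, rose in both, by 6.01 and 3.74 (-2.27 ± 0.82, adjusted p = 0.633).

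**Figure D4:**
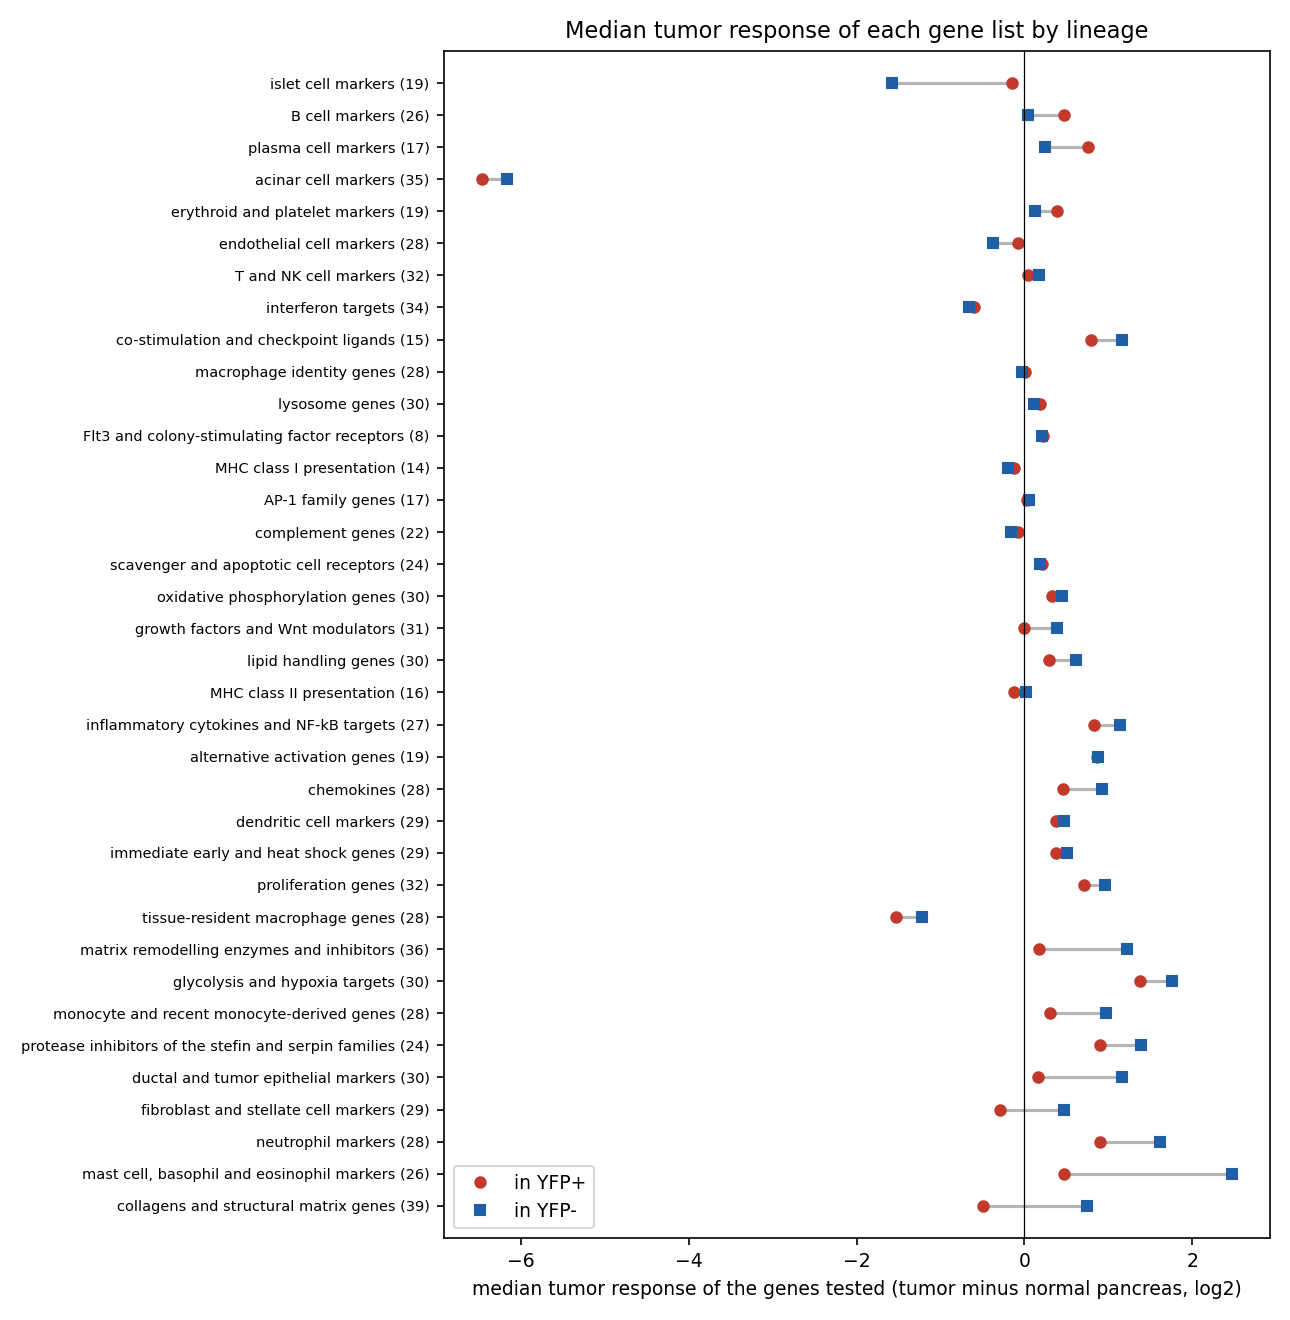
Median tumor response (log2) of each of 36 gene lists in YFP+ and in YFP- cells. The medians of acinar markers are the lowest in both populations (-6.46 and -6.16), and the points of collagens (-0.49 and 0.74) and of mast cell, basophil and eosinophil markers (0.47 and 2.48) lie far apart.

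The 28 monocyte and recent monocyte-derived genes had a median interaction of -0.54, 9 negative and 0 positive at an unadjusted p under 0.05, and 0 calls. S100a6, a calcium-binding protein gene, was at 2.92, 3.17 and 3.31 on normal YFP+ arrays and at 2.49, 1.71 and 2.31 on normal YFP- arrays, and its order turned in tumor, where YFP+ arrays lay between 2.37 and 2.80 and YFP- arrays between 2.88 and 3.36. It rose in YFP- cells by 0.98 (limma, adjusted p = 0.00319), the response of YFP+ cells was -0.50 (adjusted p = 0.118), and the interaction was -1.48 ± 0.27 (adjusted p = 0.0639). Without the normal YFP- array numbered 23912 its interaction was called, at -1.64 (adjusted p = 0.0322), and without both arrays of that number it was -1.75 (adjusted p = 0.0396). Lgals3, the galectin 3 gene, rose in YFP- cells by 1.31 from a lower level in normal pancreas (1.79 to 2.02, against 2.81 to 3.06 in YFP+ cells), and the tumor arrays overlapped (interaction -1.03 ± 0.24, adjusted p = 0.178).

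Of the 30 glycolysis and hypoxia targets 24 rose and 1 fell in each population, with a median response of 1.38 in YFP+ and 1.76 in YFP- cells and a median interaction of -0.37 (6 negative at an unadjusted p under 0.05, 0 calls). Slc16a3, the lactate exporter gene, rose by 2.25 in YFP+ and 3.41 in YFP- cells (-1.16 ± 0.29, limma, adjusted p = 0.235), and Pgk1, of the glycolytic chain, by 1.43 and 2.33 (-0.90 ± 0.25, adjusted p = 0.331). The 24 stefin and serpin protease inhibitors had a median of -0.65 (0.18 within slide 2), with Serpina3n and Cstdc4 called and 5 negative at an unadjusted p under 0.05. Serpinb1a, an inhibitor of neutrophil proteases, fell in YFP+ cells by 1.74 against a response of 0.39 in YFP- cells (-2.14 ± 0.51, adjusted p = 0.203).

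Tissue-resident macrophage genes fell in both populations. Of 28, 16 fell in YFP+ and 14 in YFP- cells, 0 rose, the median responses were -1.53 and -1.22, and 0 had an interaction at an unadjusted p under 0.05 (median -0.31, and 0.29 without the normal YFP- array numbered 23912). Within slide 2 that median was 1.35 and within slide 3 it was -1.73. Acinar markers, which encode digestive enzymes of the exocrine pancreas, also fell in both, 29 of 35 in YFP+ and 30 in YFP- cells, with medians of -6.46 and -6.16 and a median interaction of 0.22. Within that list Ctrb1, a chymotrypsinogen gene, fell by 6.70 in YFP+ and 4.85 in YFP- cells on the log2 scale (-1.85 ± 0.42, limma, adjusted p = 0.160).

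The antigen presentation, inflammatory and interferon lists had median interactions close to that of all genes. The median was -0.18 over 16 genes of MHC class II presentation, -0.08 over 14 of MHC class I presentation, -0.18 over 27 inflammatory cytokines and NF-kB targets, -0.20 over 28 chemokines and 0.06 over 34 interferon targets, with 0 calls in these lists. Within slides 2 and 3 all of these medians but that of MHC class II turned sign. They were -0.27 and -0.03 for MHC class II, -0.38 and 0.26 for MHC class I and 0.08 and -0.18 for inflammatory genes. For chemokines they were 0.49 and -0.68, and for interferon targets -0.17 and 0.21. Inflammatory genes rose in both populations, 15 of 27 in each. Proliferation genes had a median of -0.27, which was -1.01 within slide 2 and 0.93 within slide 3. Of 32, 5 rose in YFP+ and 12 in YFP- cells, beside 5.77% and 7.64% of all genes, and the difference between these counts was not tested. Misses of the threshold do not show that the responses were equal, since the median standard error of an interaction was 0.44.

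**Figure D5:**
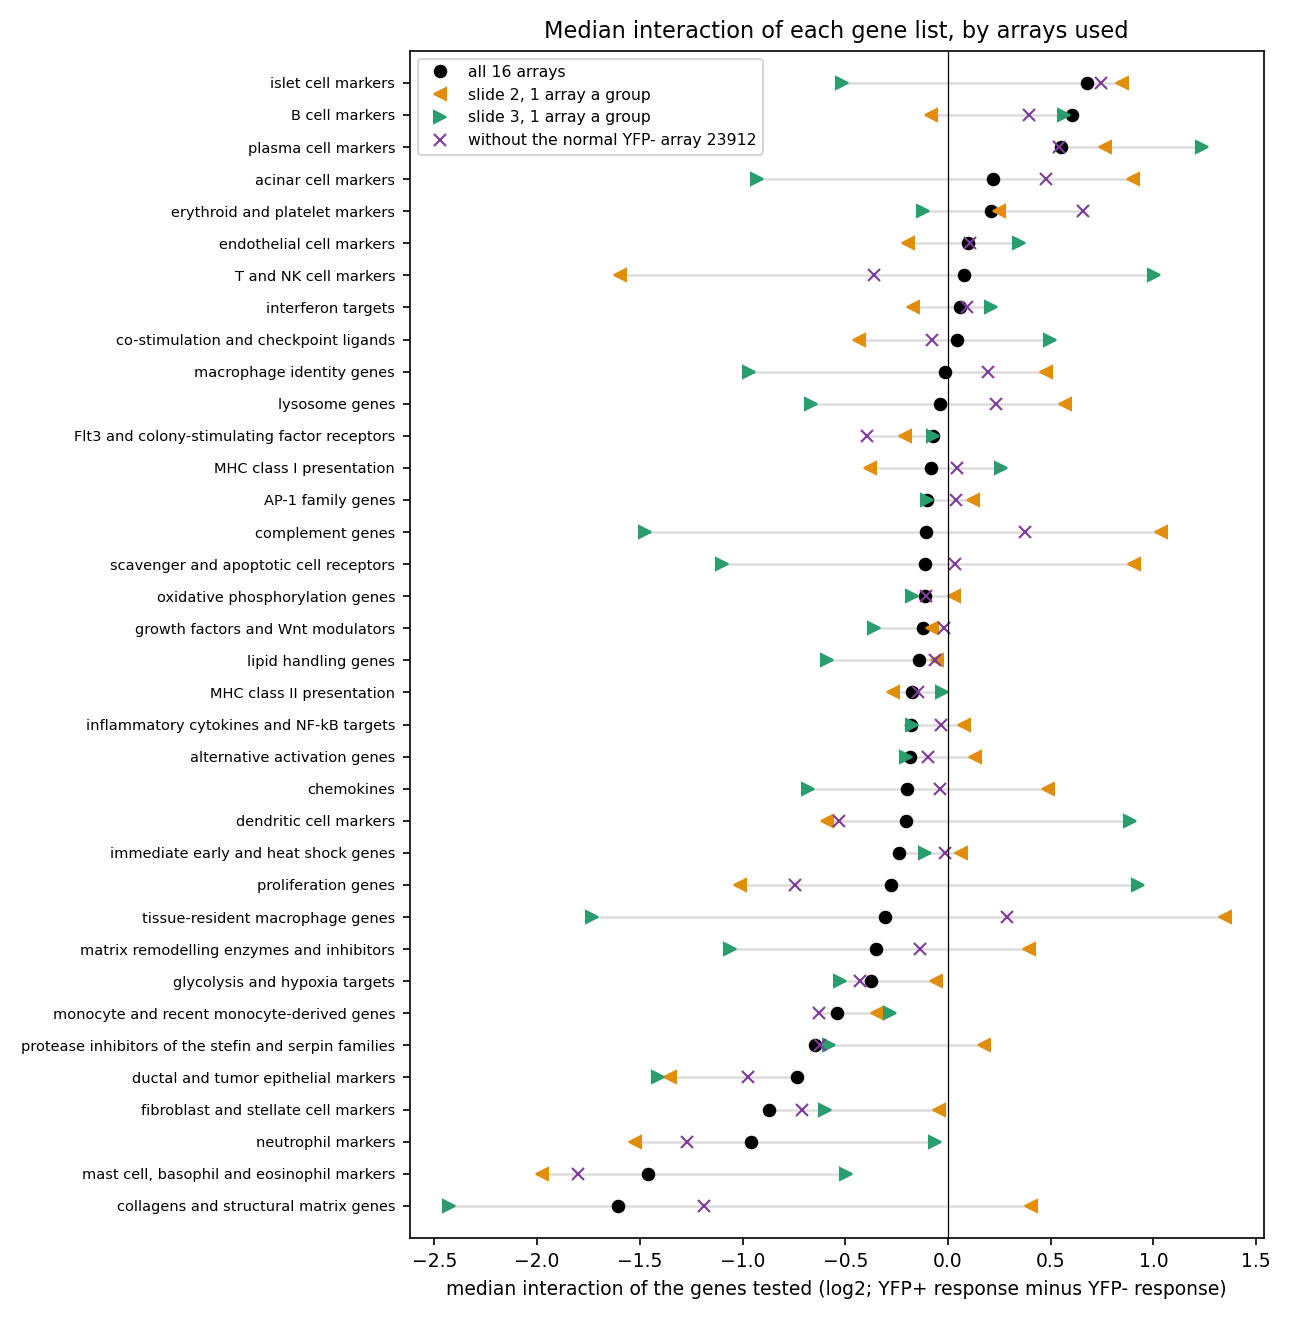
Median interaction (log2) of each of 36 gene lists over all arrays, within slide 2, within slide 3 and without the normal YFP- array numbered 23912. The mast cell, neutrophil, fibroblast and ductal medians are below 0 in all 4 series. Of these the fibroblast median is only -0.042 on slide 2 and the neutrophil median only -0.063 on slide 3. Collagens turn from -1.61 to 0.40 on slide 2.

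The 4 slides, each scanned once, held 4 arrays each, and slides 2 and 3 held 1 array of each group. For all 25 called genes the interaction had the same sign within both slides, whose arrays are among those that gave the calls. No such share was taken over all genes. It was -4.16 and -2.71 for Thbs2, -2.83 and -5.78 for Ednra, -4.51 and -3.40 for Efna5 and 5.52 and 8.85 for ENSMUST00000103390 on slides 2 and 3. Pairing the arrays by title number, the YFP differences of tumor and normal numbers did not overlap for 1155 genes (4.78%), and all 25 called genes were among these. The same arrays and the same contrast gave the calls, so neither count is separate support for them. With the slide as a block 8 of the 25 calls remained, and the adjusted p of those lost ran from 0.0583 to 0.197.

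The 75th percentile of the processed signal was between 2167 and 3388 intensity units per array, and 64.9% to 75.4% of probes on an array passed the mark for well above background. Across probes, which are not independent replicates, the lowest correlation between 2 arrays of a group was 0.908, among tumor YFP- arrays, and the highest 0.977, among tumor YFP+ arrays.

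Leaving out the normal YFP- array numbered 23912 changed which genes were called, to 58 negative and 11 positive, with 22 of the 25 calls kept and 47 new ones. The 58 were the most negative calls of any fit that left out arrays. Without both arrays of that number there were 33 negative and 9 positive calls, 13 of the 25 kept and 29 new. Of the 47 new calls 43 were negative, and 28 of these were well above background on all 16 arrays. Of the new negative calls, 6 are described here, chosen after their values were seen. All but Itgax were also called without both arrays, a fit that leaves out the same array and is not separate support. Bhlhe40, a transcription factor gene of activated macrophages and lymphocytes, was at 2.74, 2.43 and 2.18 on normal YFP+ arrays and at -0.26 and -0.10 on the other 2 normal YFP- arrays, against 2.06 on the array left out. All 10 tumor arrays were between 3.85 and 4.62. The larger response of YFP- cells in this fit thus came with a lower level on the 2 normal YFP- arrays kept (interaction -2.47 ± 0.27 without the array, limma, adjusted p = 0.00288, and -1.72 with it).

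Itgax, the CD11c integrin gene, showed the same order, with 1.29, 0.92 and 1.29 on normal YFP+ arrays, -1.64 and -0.95 on the 2 retained normal YFP- arrays, 0.48 on the other and overlapping tumor arrays (-2.13 without the array, limma, adjusted p = 0.0221). The chemokine gene Ccl17 was at 3.41, 3.51 and 3.28 on normal YFP+ and at 1.80 and 1.35 on retained normal YFP- arrays, against 4.99 to 5.43 on the tumor arrays (-1.72, adjusted p = 0.0108). Mmp12, the macrophage elastase gene, was at 3.57, 3.10 and 3.33 against 1.22 and 1.43 (-1.89, adjusted p = 0.0173). Gpr35, a G protein-coupled receptor gene of myeloid and gut cells, was at 2.54, 2.59 and 2.70 against 0.31 and 0.60 (-2.02, adjusted p = 0.00398). Tarm1, an activating receptor gene of myeloid cells, was between -3.54 and -2.25 on normal YFP+ arrays and below background on the retained normal YFP- arrays (-3.96 ± 0.38, adjusted p = 0.000666). On the array left out these genes were at 3.02 for Ccl17, 3.01 for Mmp12, 2.09 for Gpr35 and -2.31 for Tarm1, close to the normal YFP+ arrays. Genes called only without an array tend to be those on which it differs from its group, so this closeness follows from their choice. Their small adjusted p without the array follows in part from the same choice and rests on 2 normal YFP- arrays. Over all arrays their adjusted p (limma) was 0.495 for Ccl17, 0.576 for Mmp12, 0.401 for Gpr35 and 0.806 for Tarm1. Tnfrsf17 was among the 4 new positive calls (4.72, adjusted p = 0.0114).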

How the data were processed

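Macrophages were sorted into lysis buffer, RNA was extracted, amplified and labelled with Cy5, per the labels' protocols, and read on 1-color Agilent 4x44K arrays. The deposited scanner files hold red-channel intensity values, made with Agilent Feature Extraction 11.5.1.1 per the submitters' processing notes. The processed signal is background subtracted, with a surrogate value on 14.6% to 24.1% of spots, per the file headers. The deposited normalized table holds log2 values and served as an alternative; its normalization is not given in the sources used here.

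Outlier spots (140 to 353 an array) and controls were left out, spots of a probe averaged, and the log2 signal reduced by each array's 75th percentile. Probes well above background on at least 3 of 16 arrays were kept (30566, of which 254 had a missing value and were left out). The brightest probe stood for a gene (5029 genes had several). Of 39429 probes, 28578 were named by accession, 2204 by symbol and 162 by synonym from a RefSeq table, and 8485 kept the file's name. Probe positions are those of the files (mm9).

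limma 3.58.1 in R 4.3.3 (lmFit, eBayes) fitted 4 group means over all 16 arrays, two-sided. The p-values were adjusted by Benjamini-Hochberg across all 24173 genes, and 0.05 was the threshold. The fit was tested on simulated data. The bound of a fold sets the dimmer group at the higher of its own signal and each array's lowest signal among probes well above background, and holds for this background handling. Named genes are up to 15 per direction, those called and then those of smallest p, further the called members of each list or its 2 members of smallest p, and Flt3, Csf1r and Adgre1. Other genes, namely the remaining called features, further list members and those named for the fit without 1 array, were chosen after their values were seen. The groups, lists (36, with 1009 members) and comparisons were chosen with earlier results of these data known. Alternatives changed the background correction, normalization, probe filter, probe choice, slide and replicate blocks, array weights, variance model and the arrays used. Some genes are not reported here.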

Additional observations from a re-analysis of the deposited data

Results flagged for a closer look

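The tumor response differed between YFP+ and YFP- cells, by the test of the interaction itself, for 25 genes. The negative interactions included Serpina3n (-5.28), Rbp4 (-4.79), Ednra (-4.49), Cfi (-4.35), Efna5 (-3.99), Thbs2 (-3.90), Prrx2 (-3.72), Cstdc4 (-3.66), Kif26b (-3.65), Gcnt3 (-3.53), Gm9733 (-3.05), Efnb1 (-2.63), Phldb2 (-2.12) and AK035396 (-1.57). The positive ones included ENSMUST00000103390 (8.68), P4htm (5.22), A_55_P2059775 (4.66), ENSMUST00000103542 (4.54), Rab25 (3.40), A_55_P2123711 (2.63), Gm36913 (2.46) and ENSMUST00000026133 (1.91). These are fitted sizes, measured in every group for 4 negative and 4 positive calls, whereas the others depend on the floor. With dim groups set at the floor, P4htm was at 1.85, Gm36913 at 0.14, Ednra at -1.78 and Gcnt3 at -1.33. With the slide as a block 8 of the 25 calls remained.

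In 7 of 54 groups of 5 arrays of the named genes, 1 array lay far from the others by Dixon's test, where chance gives about 1 in 20. In tumor YFP+ cells these arrays were at 0.17 for Asns, -4.10 for Rbp4 and 0.88 for Cstdc4. In tumor YFP- cells they were at -1.23 for Derl3, -3.85 for Ednra, -0.19 for Klf5 and -4.06 for Vil1. Asns, Derl3, Klf5 and Vil1 were not called in the interaction over all arrays.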

How the results depend on the processing

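The count of positive interactions (9) was 16 with normexp, 5 with quantile normalization and with the deposited values, 1 with the slide block and 96 with array weights, and that of negative ones (16) was 10, 13, 13, 7 and 254. Array weights ran from 0.387 to 4.72, the highest on normal YFP- 23916. The lowest was on tumor YFP- 23677, and that of normal YFP- 23912 was 0.407. Leaving out 1 array or both arrays of a number gave 1 to 16 positive and 6 to 58 negative calls. Of the 25 calls, 11 were kept with normexp, 16 with quantile normalization, 8 with the slide block and 9 without normal YFP+ 23916, normal YFP+ 23917 or normal YFP- 23916. For tumor responses, array weights gave 2530 lower in YFP+ and 3864 higher and 5474 lower in YFP- cells, normexp 1292 lower in YFP- cells, and subsets of arrays 981 to 1527 higher and 879 to 1752 lower in YFP+ and 1226 to 2109 higher and 1018 to 2694 lower in YFP- cells. The YFP difference in tumor (184 higher, 395 lower) had 623 lower with normexp, and 93 to 206 higher and 258 to 452 lower over subsets. That in normal pancreas (2 higher, 3 lower) had 0 and 0 with normexp, 14 higher with quantile normalization, 12 higher with the deposited values, 0 higher with the slide block, 7 lower with no filter, 0 lower with a trended robust variance, 819 and 336 with array weights, and over subsets 0 to 261 higher and 0 to 75 lower, the highest without normal YFP- 23912. The causes were not tested. With 1 array a group, the medians of 19 of the 36 lists had the other sign within slide 2, among them stefins and serpins (0.18), collagens (0.40), matrix remodelling (0.39) and B cells (-0.081), and those of 6 within slide 3, among them islet (-0.51) and dendritic cell markers (0.89). With the title number as a replicate block, 4 positive and 12 negative interactions passed, 10 of the 25 calls were kept, and the YFP difference in normal pancreas had 0 higher and 0 lower. Tumor responses could not be fitted with it, since each number holds 1 tissue. The numbers share no stated source, and the deviations of same-numbered arrays correlated across genes at r = -0.290 to 0.316. Where a probe lay below background in a group, signal over background limits the size of an interaction.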

Other observations

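Lists of other cells and functions gave values not described above, with 0 calls in each. The 30 oxidative phosphorylation genes had a median interaction of -0.11 (0.03 within slide 2), with 0 values at an unadjusted p under 0.05. In YFP- cells 16 rose in tumor and in YFP+ cells 6, beside 7.64% and 5.77% of all genes, and the difference between these counts was not tested. Cycs, the cytochrome c gene, rose in both, by 1.22 in YFP- and 0.82 in YFP+ cells (limma, interaction adjusted p = 0.907). The 19 islet markers had a median of 0.68. Of these, 5 fell and 1 rose in YFP- cells and 2 fell in YFP+ cells. Over all genes 8.49% fell and 7.64% rose in YFP- cells and 6.54% fell in YFP+ cells. Pyy, the peptide YY gene, fell in YFP- cells by 3.31 on the log2 scale (interaction 3.92 ± 1.07, limma, adjusted p = 0.329).

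Among 32 T and NK cell markers the median interaction was 0.08, and it was -1.60 within slide 2 and positive within slide 3. At an unadjusted p under 0.05, 3 values were positive and 2 negative, beside 2.76% and 3.2% of all genes. Tigit, a checkpoint receptor gene of T and NK cells, rose in YFP+ cells by 3.67 and had a response of 0.67 in YFP- cells (limma, interaction adjusted p = 0.273), with a size set by the floor of the array. Cd2, an adhesion receptor gene of T cells, fell by 1.77 in YFP+ and by 0.79 in YFP- cells (interaction -0.98 ± 0.27, adjusted p = 0.364). The 28 endothelial markers had a median of 0.10, with 0 values at an unadjusted p under 0.05.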
